A study of Mus musculus with 6 samples.

Results

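Macrophages that received LPS together with the liver X receptor agonist GW3965 were compared with macrophages that received neither. The comparison rests on 2 of the 6 arrays of the series, the array titled GW3965 + LPS and the array titled No treatment, and covers every probe that carries 1 gene symbol. These probes stood for 8841 genes. Of them 4775 were measured in this pair, which means that the brighter of the 2 arrays read at or above its own median. Intensities under an array's 25th percentile were raised to that percentile, the floor, so a fold with a floored side is only a lower limit and is written "at least".

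The cells were primary macrophages drawn out by thioglycollate in female C57BL/6 mice of 6 weeks. Strain, sex, age and this way of obtaining the cells are common to all groups. The 4 other arrays carried LPS alone, TSA alone, TSA + LPS, and TSA + GW3965 + LPS, where TSA is the histone deacetylase inhibitor trichostatin A. The labels state no dose, no length of treatment, and say nothing on whether cultures or animals were separate, so every p-value below measures only the spread between these arrays. Each group had 1 array. A difference within 1 pair therefore has no error and no test, and its members are called higher or lower from 2-fold upwards. Tests came from limma, fitted to all 6 arrays with a term for the treatment (none, LPS, or GW3965 + LPS) and a term for TSA. As no group had a replicate, limma took its error from how far treatment differences disagreed without and with TSA, and from other genes. Its estimate for GW3965 + LPS against no LPS is the mean of 2 log2 differences that share no array, GW3965 + LPS minus No treatment and TSA + GW3965 + LPS minus TSA. Genes are said to have risen or fallen only where limma gave a Benjamini-Hochberg adjusted p under 0.05 over the 4806 genes tested.

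LPS, a component of the outer membrane of Gram-negative bacteria, is sensed by Toll-like receptor 4 with its co-receptor CD14. One branch of the signal runs through MyD88 to the transcription factor NF-kB, which binds kB sites and switches on cytokine and chemokine genes. The other branch leads to interferon beta, which acts back on the cell and switches on antiviral genes that carry an interferon-stimulated response element (ISRE). The liver X receptors (LXRs) are nuclear receptors for oxysterols that turn on cholesterol export and fatty acid synthesis, and LXR agonists are known to dampen part of the inflammatory programme of macrophages. GW3965 is a synthetic LXR agonist.

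Letters that match each kind of binding site were found in the promoters of some genes that stood highest in this comparison. The letters GGGANNTTCC (kB) and GAAANNGAAA (ISRE), N being any base, were searched on both strands in the 250 bases before each RefSeq transcript start of build GRCm38.p6. Of the 15 genes with the largest ratio, 11 had a promoter in the table, 2 of these held the kB letters and 2 the ISRE letters. Those 4 are shown together with Cxcl10, which was added after its values were seen because its level differed between GW3965 + LPS and LPS alone. Each sequence runs 5' to 3' on the gene's own strand and ends at the base before the start, position -1. Capitals mark the matched letters, and matches to the reverse strand read TTTCNNTTTC for the ISRE.

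Il6, chr5:30012864-30013113, plus strand: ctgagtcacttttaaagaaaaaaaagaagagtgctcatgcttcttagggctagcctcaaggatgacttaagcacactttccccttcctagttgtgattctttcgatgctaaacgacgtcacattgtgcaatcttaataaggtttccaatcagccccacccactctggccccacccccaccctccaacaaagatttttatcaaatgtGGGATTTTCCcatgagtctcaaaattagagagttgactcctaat
Cxcl1, chr5:90890995-90891244, plus strand: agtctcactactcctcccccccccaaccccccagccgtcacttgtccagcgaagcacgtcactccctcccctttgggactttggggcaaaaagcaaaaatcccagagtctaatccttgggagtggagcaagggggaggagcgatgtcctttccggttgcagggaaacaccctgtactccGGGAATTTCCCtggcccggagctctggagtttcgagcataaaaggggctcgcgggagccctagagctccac
Ifit1, chr19:34640639-34640888, plus strand: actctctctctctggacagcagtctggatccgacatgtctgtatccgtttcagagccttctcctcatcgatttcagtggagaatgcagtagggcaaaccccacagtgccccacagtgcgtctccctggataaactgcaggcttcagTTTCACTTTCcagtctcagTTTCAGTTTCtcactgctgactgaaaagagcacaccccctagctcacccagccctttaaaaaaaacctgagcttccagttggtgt
Ifit3, chr19:34583279-34583528, plus strand: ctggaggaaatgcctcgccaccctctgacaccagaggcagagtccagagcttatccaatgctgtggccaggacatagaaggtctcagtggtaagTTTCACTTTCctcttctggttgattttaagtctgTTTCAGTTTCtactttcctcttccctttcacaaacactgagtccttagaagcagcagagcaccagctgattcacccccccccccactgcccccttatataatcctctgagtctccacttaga
Cxcl10, chr5:92348890-92349139, minus strand: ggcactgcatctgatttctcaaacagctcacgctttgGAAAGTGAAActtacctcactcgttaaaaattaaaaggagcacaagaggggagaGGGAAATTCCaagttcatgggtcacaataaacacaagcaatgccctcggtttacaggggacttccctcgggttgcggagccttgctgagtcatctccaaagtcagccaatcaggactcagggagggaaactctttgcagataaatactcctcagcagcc

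Il6 held 1 kB match, at -44 to -35. In Cxcl1 a match on each strand, at -71 to -62 and -70 to -61, overlapped in a single run of capitals. Ifit1 held ISRE matches at -104 to -95 and -85 to -76, and Ifit3 at -156 to -147 and -122 to -113, so both genes of this family carried a pair. Cxcl10 held an ISRE match at -213 to -204 and a kB match at -159 to -150. Over all 32851 promoters of the table, 1.21% held the kB letters and 2.98% the ISRE letters. Among the promoters of genes at least 2-fold higher with GW3965 + LPS the shares were 1.88% and 6.77% of 532, and among those of genes at least 16-fold higher they were 12.2% and 14.6% of 41. For genes at least 2-fold lower they were 1.12% and 1.68% of 358. These shares describe letters in a short window and do not show binding.

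With GW3965 + LPS, 515 of the 4775 measured genes were at least 2-fold higher than with No treatment (10.8%) and 304 were at least 2-fold lower (6.37%), together 17.2%. The upward differences were also the larger ones. At least 4-fold higher stood 206 genes (4.31%) against 46 lower (0.963%), at least 8-fold 109 against 3, and at least 16-fold 40 (0.838%) against 0. Most genes differed little, with 3014 (63.1%) under 1.5-fold apart and a median log2 difference of 0.06 over all measured genes. The genes counted as higher had a median intensity of 2.31 with No treatment and 10.0 with GW3965 + LPS, and they supplied 4.62% and 17.6% of the summed signal of all named genes. The genes counted as lower went from a median of 3.31 to 1.29, and from 2.90% to 0.880% of the signal. For 25 of the higher and 5 of the lower genes the dimmer array was under the floor. Quantile normalization shifted the median difference from 0.06 to -0.09 and the split from 515 higher and 304 lower to 444 and 404, so the size of the excess of higher over lower genes depends on the scaling.

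**Figure D1:**
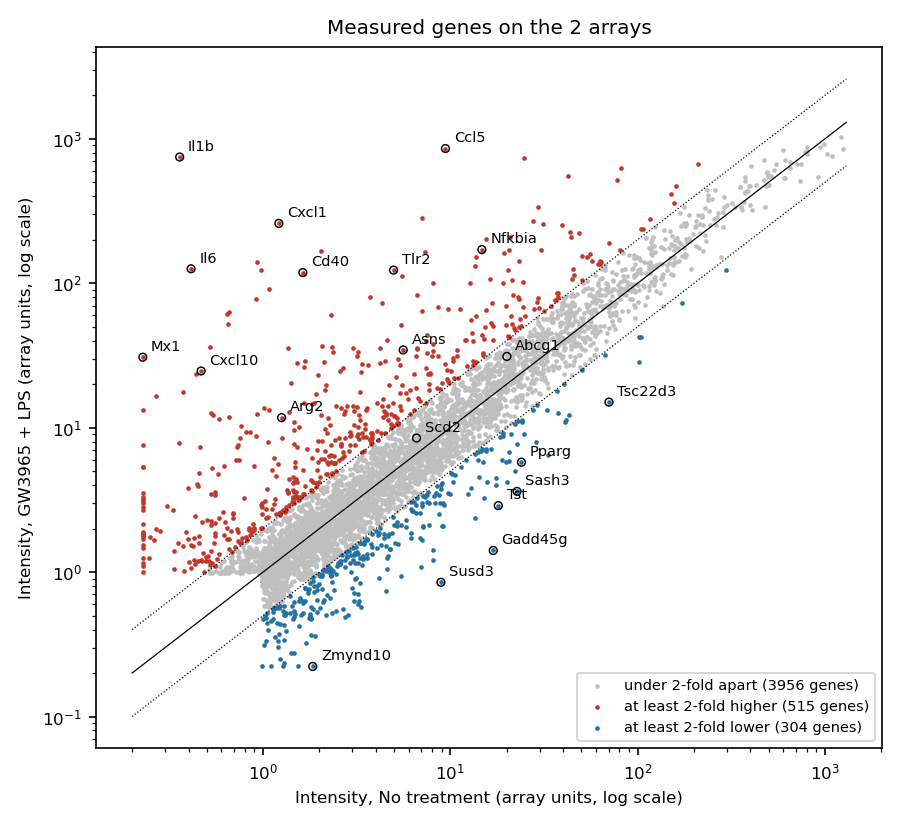
Each point is 1 of the 4775 measured genes, with its intensity on the No treatment array on the horizontal axis and on the GW3965 + LPS array on the vertical axis, both on log scales in array units. Red points are the 515 genes at least 2-fold higher, blue points the 304 at least 2-fold lower, the solid line marks equal values and the dotted lines 2-fold. Red points reach much farther from the line than blue ones, with Il1b at 0.359 and 748, and the column of points at the left edge holds genes under the floor on the No treatment array.

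In limma 577 of 4806 genes rose (12.0%) and 239 fell (4.97%) with GW3965 + LPS against no LPS, and 1364 had an unadjusted p under 0.05. Of the 515 genes counted as higher in the single pair 513 were tested and 456 rose, and of the 304 counted as lower 272 were tested and 189 fell. The pair is part of the fit, so these counts are not independent of each other.

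The macrophage label was checked on 14 marker genes present on the array. All 14 read at or above the array median with GW3965 + LPS and 13 with No treatment, the exception being Adgre1 (F4/80) at 0.730, which read 2.00 with GW3965 + LPS. The summed level of these markers was 3215 with No treatment and 2984 with GW3965 + LPS. Lyz1 made 1097 and 760 of these sums, Lyz2 1027 and 781, and Cd14 29.2 and 339. Markers of other cells had lower sums, but some single genes read well above the array median. The summed level of 10 neutrophil genes was 31.1 with No treatment and 57.8 with GW3965 + LPS, with 2 and 3 of the 10 at or above the median. S100a8 made 22.004 and 49.2 of these sums and rose in limma (adjusted p = 0.0016), as did Camp, from under the floor to 1.54 (adjusted p = 5.6e-05). Ctsg read 6.08 and 4.51, and Mpo and Elane were under the floor on both arrays. Over 16 T and NK cell genes the sums were 41.6 and 50.5, with 4 of the 16 at or above the median on both arrays. Gzma (21.6 and 29.5) and Cd247 (8.81 and 11.2) made most of them, and Cd3e and Cd8a were under the floor on both. The 13 genes read for mast cells and eosinophils summed to 31.5 and 37.4, with Tpsb2 at 10.3 and 18.4. Of them 4 and 5 were at or above the median. They include the B cell gene Ms4a1 (0.673 and 1.09), which a synonym match put in place of Ms4a2. Ms4a1 is also counted with the B cell genes and was at or above the median only with GW3965 + LPS. Of 3 dendritic cell genes, which summed to 25.04 and 18.1, Itgax made 23.99 and 16.7. The 13 mesothelial and fibroblast genes summed to 10.8 and 17.01, with Dcn at 5.21 and 10.7 and 2 of the 13 at or above the median on both arrays. Sums over 8 B cell genes were 11.995 and 14.9, with 4 and 5 at or above the median, and over 4 red cell genes 1.84 and 1.97, with 0 of 4. Gzma, Cd247, Tpsb2, Itgax and Dcn did not pass in limma. The part of these cells in the results was not tested. In samples of whole RNA, fewer cells of a type and less RNA per cell cannot be told apart.

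Secreted cytokines held the 2 highest genes of the pair. Il1b, the cytokine interleukin 1 beta that drives fever and the acute phase response, read 0.359 with No treatment and 748 with GW3965 + LPS, a 2084-fold difference. With TSA on both sides the same gene read 0.280 and 576. Both pairs put it about equally far apart, and limma gave a rise of 11.02 ± 0.23 on the log2 scale (SE, adjusted p = 7.6e-16). Il1a, the other interleukin 1, went from 2.04 to 167 (81.7-fold). Il6, a cytokine of B cell help and liver acute phase proteins, went from 0.413 to 126 (305-fold) in this pair and from 0.447 to 31.5 in the pair with TSA. Tnf, the tumour necrosis factor, went from 0.648 to 52.5 (81.1-fold), and Il12a, the p35 chain of interleukin 12, from 0.659 to 63.3 (96.1-fold). Il1rn, which blocks the interleukin 1 receptor, was only 2.43-fold higher, with 5.43 and 13.2, and went from 1.93 to 21.1 with TSA. Of 17 measured cytokine genes 13 were at least 2-fold higher, 0 lower and 4 within 2-fold, with a median log2 difference of 3.28 against 0.06 for all measured genes. In limma 14 of the 18 tested rose and 0 fell. The T cell cytokine gene Ifng also rose, from 0.267 to 2.00 in the pair, while Tgfb1, a cytokine that restrains inflammation, differed by -0.15.

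Chemokines, the secreted proteins that draw leukocytes into tissue, followed closely. Cxcl1, which attracts neutrophils, read 1.21 with No treatment and 260 with GW3965 + LPS (214-fold). Ccl5, which attracts T cells and monocytes, was already bright at 9.42 and read 856 (90.9-fold), and the monocyte attractant Ccl7 went from 1.07 to 91.0 (85.0-fold). Ccl2 and Ccl3 were 40.0-fold and 29.8-fold higher. Of 21 measured chemokine genes 16 were at least 2-fold higher, 0 lower and 5 within 2-fold, with a median log2 difference of 2.95, and limma called 15 of 21 risen and 0 fallen. The members that did not pass included Ccl6, Pf4 and Cxcl13, which differed by 0.28, 0.51 and 0.53. Ccl24, an eosinophil attractant, was 3.35-fold higher here, from 0.553 to 1.86, but read 0.569 and 0.457 with TSA, and limma gave 0.71 ± 0.43 (adjusted p = 0.30).

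Interferon-stimulated genes were higher almost throughout. Of 35 measured members 30 were at least 2-fold higher, 0 lower and 5 within 2-fold, the median log2 difference was 3.04, and limma called 33 of 35 risen and 0 fallen. Mx1, a gene of the Mx GTPase family, was under the floor with No treatment and read 30.8 with GW3965 + LPS, at least 135-fold higher. The family members Ifit1, Ifit3 and Ifit2, which bind foreign RNA and halt its translation, were 94.5-fold, 85.0-fold and 61.9-fold higher. Their intensities went from 0.646 to 61.0, from 0.921 to 78.3 and from 0.269 to 16.7. Rsad2, the antiviral protein viperin, was 47.0-fold higher in this pair, with 0.374 and 17.6, and was under the floor with TSA against 32.1 with TSA + GW3965 + LPS. The transcription factors of the response moved less. Irf1 was 6.15-fold higher, at 23.2 and 143, and Irf8 and Irf9 differed by 0.79 and 0.77. Irf8 and Psmb8 were the 2 members that missed limma's threshold, with estimates of 0.86 and 0.72 (adjusted p = 0.077 and 0.069).

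Of 27 measured genes of NF-kB feedback and the early response 15 were at least 2-fold higher, 3 lower and 9 within 2-fold, with a median of 1.14, and the same numbers rose, fell and did not pass in limma. Nfkbia, the inhibitor that NF-kB itself induces, read 14.7 with No treatment and 171 with GW3965 + LPS (11.6-fold), and Traf1, an adaptor of tumour necrosis factor receptors, 5.53 and 112 (20.2-fold). The NF-kB subunits Rel, Nfkb2 and Relb were higher by 3.23, 2.73 and 1.13 on the log2 scale, and the cytokine signalling inhibitors Socs3 and Socs1 by 3.44 and 3.06. Among the members that did not pass in limma were Tnfaip3, Atf3, Fosb and Dusp1, which differed by -0.33, -0.07, -0.08 and -0.27. Jun, a subunit of AP-1, fell, with 8.68 and 2.51 in the pair (limma -1.83 ± 0.27, adjusted p = 6.7e-05).

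Members of the Gadd45 family in that list went opposite ways. Gadd45g, a stress sensor of the growth arrest and DNA damage family, was the lowest gene of the whole pair at 17.0 with No treatment and 1.41 with GW3965 + LPS (12.01-fold lower), and Gadd45a also fell, from 22.8 to 7.65. Gadd45b rose by 1.71 on the log2 scale in the pair. Among MAP kinase phosphatases, which switch off stress kinases, Dusp4 was 6.07-fold higher and Dusp1 differed by -0.27. Of 15 measured genes for MAP kinases and their phosphatases 5 were at least 2-fold higher (33.3%) and 0 lower, and limma called 6 risen and 0 fallen. Among all measured genes 10.8% were higher and 6.37% lower, and limma called 12.0% of tested genes risen and 4.97% fallen.

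In the Toll-like receptor pathway 11 genes rose and 1 fell in limma. Tlr2, the receptor for bacterial lipoproteins, went from 4.97 to 123 (24.8-fold), its partner Tlr1 from 4.20 to 28.0 (6.67-fold), and Cd14 from 29.2 to 339 (11.6-fold). Tlr4, the LPS receptor, read 1.21 with No treatment and 0.640 with GW3965 + LPS, and limma gave -0.83 ± 0.31 (adjusted p = 0.084). Sigirr, a receptor that damps Toll-like receptor signals, fell, from 2.97 to 0.777. Of 22 measured members 11 were at least 2-fold higher, 1 lower and 10 within 2-fold, and limma tested 21. The shares over all genes were 10.8% higher and 6.37% lower, and 12.0% risen and 4.97% fallen in limma.

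Among enzymes and surface proteins of inflammation, Fpr2, a receptor for bacterial formyl peptides, went from 0.931 to 141 (151-fold). Clec4e (Mincle), a receptor for mycobacterial glycolipid, went from 0.976 to 124 (127-fold), and the co-stimulatory receptor Cd40 from 1.63 to 119 (72.6-fold). Ptgs2, the inducible cyclooxygenase, was under the floor with No treatment and read 1.89, at least 8.29-fold higher. The arginine transporter Slc7a2 was 4.15 higher on the log2 scale, whereas Nos2, the inducible nitric oxide synthase that uses arginine, read 2.52 and 3.15 and did not pass (limma adjusted p = 0.67). Arg2, the mitochondrial arginase, rose and Arg1 fell. Of 32 measured genes 21 were at least 2-fold higher, 1 lower and 10 within 2-fold, with a median of 2.46, and in limma 23 of 32 rose and 1 fell. Mefv, which encodes the inflammasome protein pyrin and belonged to none of the lists, completed the 15 highest genes at 0.523 and 36.2 (69.2-fold).

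Of the 40 genes at least 16-fold higher, 20 were cytokines, chemokines or interferon-stimulated genes and 12 were in none of the 28 lists. The cytokine, chemokine and interferon lists held 17, 21 and 35 of the 4775 measured genes. Of all 515 higher genes 157 were in a list (30.5%), and of the 304 lower genes 30 (9.87%), against 560 of all 4775 measured genes (11.7%). The lists were chosen with earlier results of these arrays known, so the share among the higher genes is a description.

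**Figure D2:**
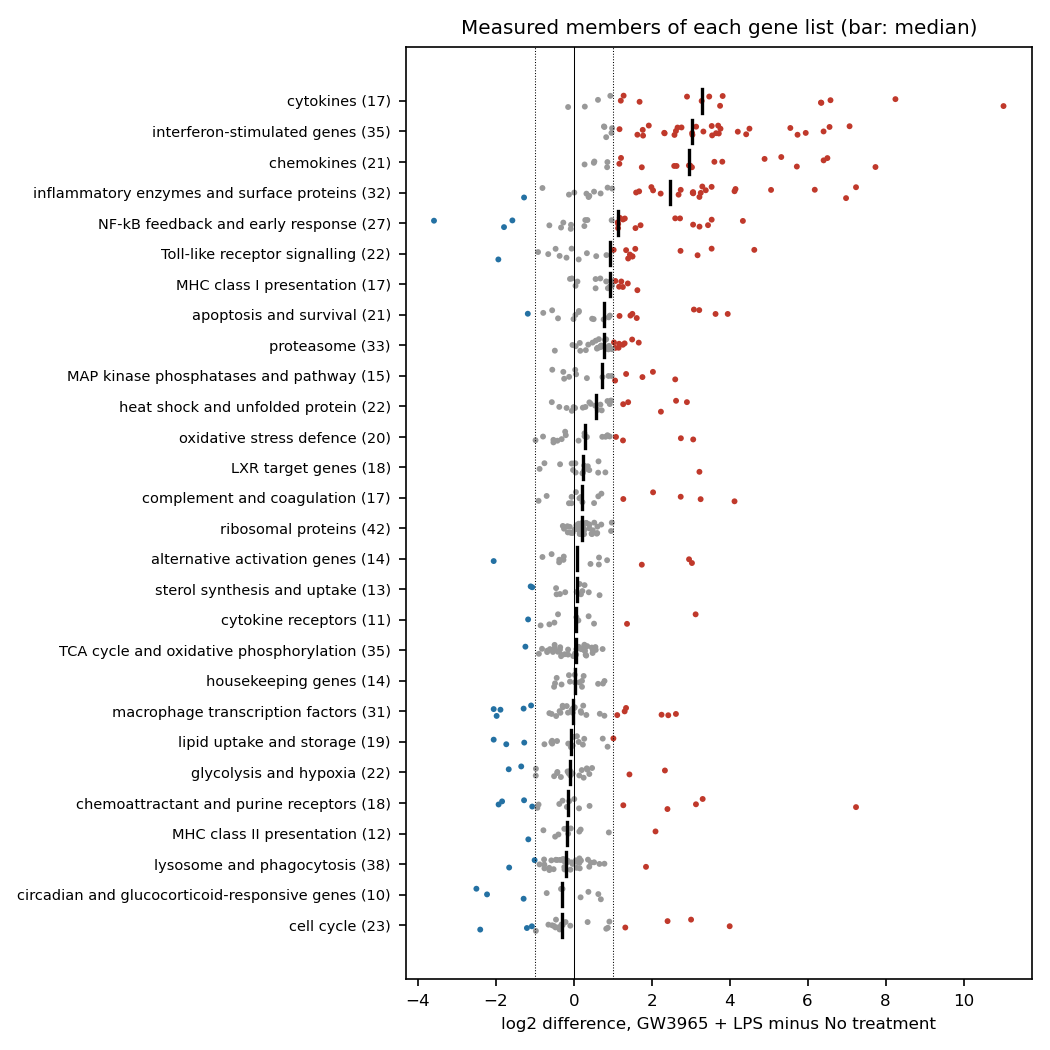
Each row is 1 gene list with the number of its measured members in brackets, each point 1 member, and the horizontal axis the log2 difference GW3965 + LPS minus No treatment, from 1 array each. Red points are at least 2-fold higher, blue points at least 2-fold lower, and the black bar is the list's median. The medians of cytokines, interferon-stimulated genes, chemokines and inflammatory enzymes lie at 3.28, 3.04, 2.95 and 2.46, and those of LXR targets, ribosomal proteins and housekeeping genes at 0.23, 0.20 and 0.03.

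Of the 15 lowest genes Gadd45g and Dbp belonged to a list. Susd3, which encodes a membrane protein with a sushi domain, read 8.91 with No treatment and 0.850 with GW3965 + LPS (10.5-fold lower) and fell in limma by 2.53 ± 0.42 (adjusted p = 0.00027). Sash3 and Map4k1, which encode an adaptor and a kinase of lymphocyte signalling, read 22.7 and 3.62, and 6.99 and 1.09. Rassf5, a Ras effector that controls integrin adhesion, was 5.80-fold lower, and the class II histone deacetylase Hdac5 5.78-fold lower, at 5.44 and 0.942. Tnfaip8l2 (TIPE2), a negative regulator of immune receptor signalling, read 13.5 and 2.35. Tst, a mitochondrial sulphur transferase, went from 18.0 to 2.88 (6.25-fold lower). These genes and Tmem273, Gask1b, Klc4 and Tpra1 fell in limma, although Tpra1 had a floored value in the pair (at least 6.93-fold lower) and missed the threshold when each array was floored at its median. Arrb1, encoding beta-arrestin 1, was at least 5.76-fold lower but read above the array median on too few arrays to be tested. Zmynd10, a gene of cilium assembly, was at least 8.29-fold lower than No treatment here, yet read 3.03 with LPS alone against 1.84 with No treatment, and its fall of 2.83 ± 0.56 in limma (adjusted p = 0.0013) was lost with robust variance estimates.

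**Figure D3:**
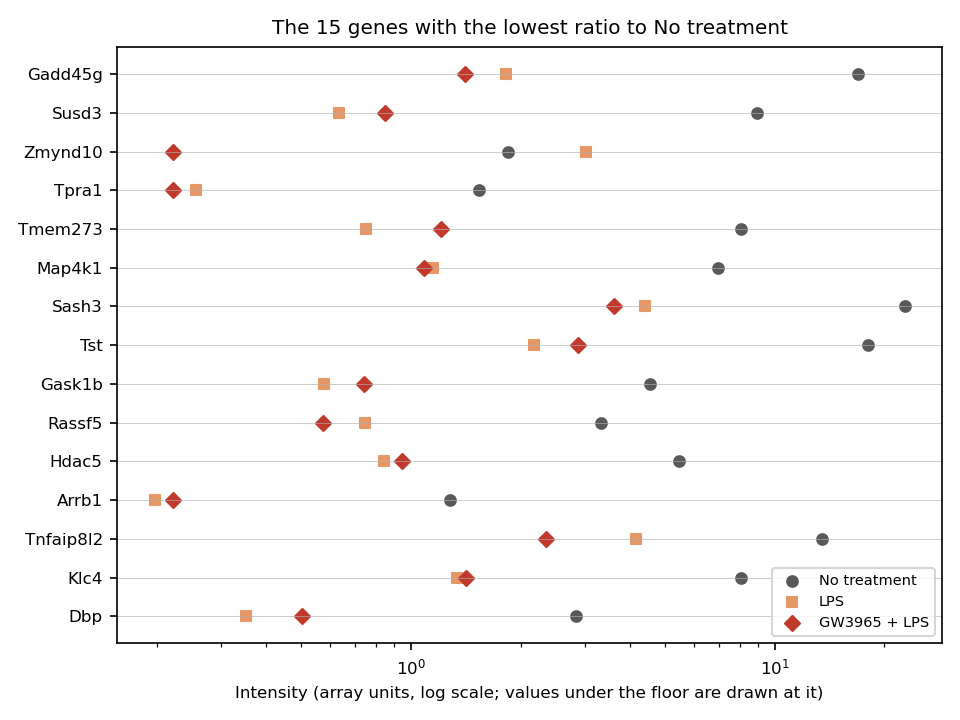
Intensity, on a log scale in array units, of the 15 genes with the lowest ratio of GW3965 + LPS to No treatment, with 1 point per array for No treatment, LPS and GW3965 + LPS and values under the floor drawn at it. For 14 of the 15 genes the LPS point also lies to the left of the No treatment point, while for Zmynd10 it lies to the right, at 3.03 against 1.84.

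The daily clock output gene Dbp, a transcription factor, read 2.84 with No treatment and 0.503 with GW3965 + LPS (5.65-fold lower) and went from 4.04 to 0.267 with TSA, and it fell in limma ( -3.21 ± 0.37, adjusted p = 4.8e-06). Tsc22d3, the glucocorticoid-induced leucine zipper gene GILZ, went from 70.3 to 15.03 and from 90.5 to 28.8 with TSA. Sgk1, another glucocorticoid-responsive gene, went the other way and rose by 1.23 ± 0.27 (limma adjusted p = 0.0033). Of 10 measured circadian and glucocorticoid-responsive genes 0 were at least 2-fold higher and 3 lower, and in limma 1 rose and 3 fell. The shares over all genes were 10.8% higher and 6.37% lower, and 12.0% risen and 4.97% fallen in limma.

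LXR target genes are those that an LXR agonist is known to switch on directly. Of 18 measured targets only Arg2 was at least 2-fold higher than with No treatment, 0 were lower and 17 were within 2-fold, a share of 5.56% higher against 10.8% of all genes, and the median log2 difference of 0.23 became -0.03 under quantile normalization and 0.05 under cyclic loess. In limma 3 of 19 rose and 0 fell, where 12.0% of all tested genes rose and 4.97% fell. The 2 targets that also rose against LPS are given beside the LPS arrays. Abcg1, an exporter of cholesterol to HDL, read 20.04 with No treatment, 10.8 with LPS and 31.1 with GW3965 + LPS. With TSA the same 3 states read 13.2, 5.66 and 30.6, so in both backgrounds GW3965 + LPS stood highest and LPS lowest. Against no LPS this was a rise of 0.93 ± 0.27 on the log2 scale (limma adjusted p = 0.023), lost under quantile normalization (0.13) and cyclic loess (0.061). Against LPS it was a rise of 1.98 ± 0.27 (limma adjusted p = 0.0016). Scd2, a fatty acid desaturase, showed the same order, at 6.60, 1.98 and 8.47 without TSA and 2.35, 1.24 and 6.83 with it. Its rise was 0.95 ± 0.30 against no LPS (limma adjusted p = 0.036, but 0.073 after quantile normalization and 0.067 with the median as floor) and 2.28 against LPS (limma adjusted p = 0.0016). Arg2 read 1.26, 5.70 and 11.7 without TSA and 3.03, 12.3 and 20.5 with it, so here both LPS and GW3965 + LPS lay above No treatment.

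The other 16 targets tested did not pass in limma against no LPS. Fasn, the fatty acid synthase, read 3.39 with No treatment, 2.57 with LPS and 5.95 with GW3965 + LPS, a log2 difference of 0.81 from No treatment (limma adjusted p = 0.12). Apoe, the apolipoprotein that accepts cholesterol, read 279 with No treatment and 152 with GW3965 + LPS, and 132 and 132 with TSA. Plin2, which coats lipid droplets, read 97.1 and 57.6. Lipoprotein lipase (Lpl), the phospholipid transfer protein Pltp, Smpdl3a and Mertk differed by 0.23, 0.05, 0.04 and 0.40, and Nr1h3, which encodes LXR alpha itself, by -0.06. Apoc1, Apoc2, Cd5l, Abcg8, Hpcal1, Scd1 and Vegfa lay between -0.35 and 0.63. Eepd1, a known LXR target that was in none of the lists and is named because limma called it against LPS, read 9.08, 2.66 and 10.4 with No treatment, LPS and GW3965 + LPS, and 8.87, 2.15 and 9.41 in the same order with TSA. Its level with GW3965 + LPS thus lay 0.20 above No treatment on the log2 scale.

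**Figure D4:**
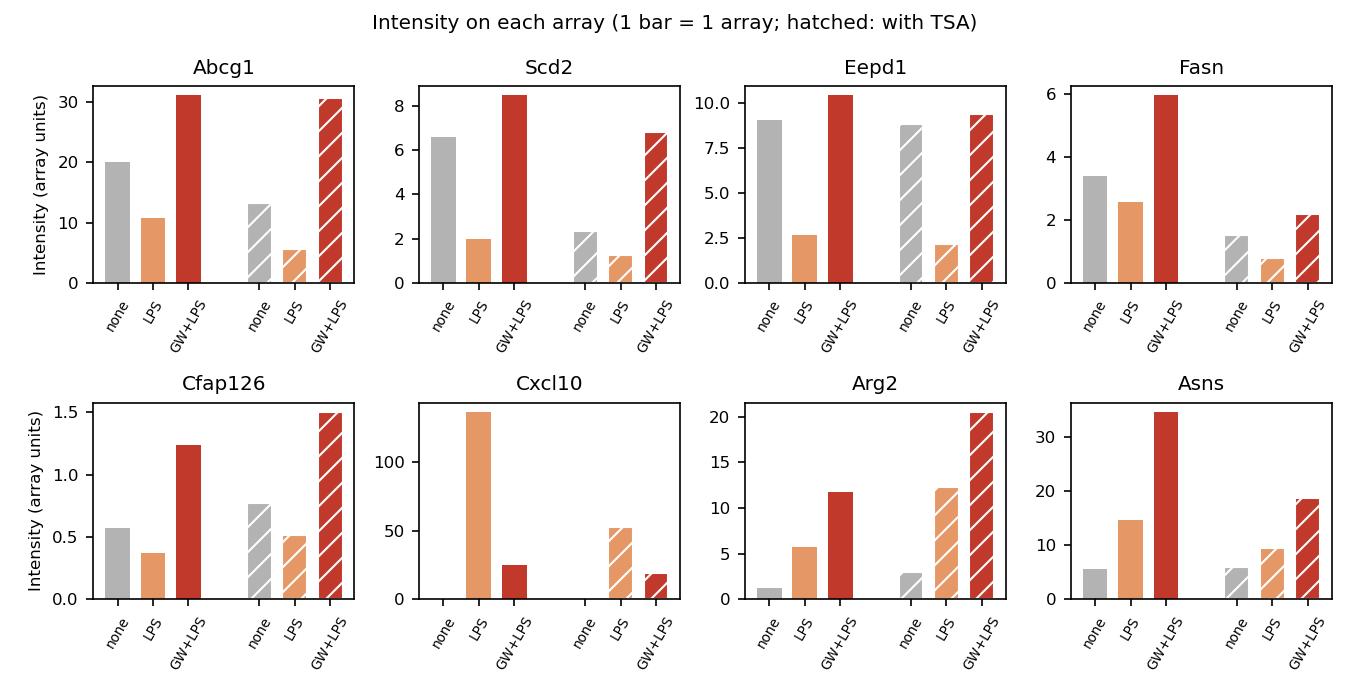
Bars give the intensity in array units on each of the 6 arrays for 8 genes, 1 array per bar and so without error bars. Grey stands for no LPS, orange for LPS and red for GW3965 + LPS, and hatched bars carried TSA. In Abcg1, Scd2, Eepd1 and Fasn the red bar is the tallest of its 3 in both backgrounds and the orange bar the lowest, whereas in Cxcl10 the orange bar is the tallest, at 137 and 52.4 against 24.7 and 18.9.

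Against LPS, limma called 4 of 4806 genes risen with GW3965 + LPS (0.0832%) and 1 fallen (0.0208%), and 132 had an unadjusted p under 0.05. The risen genes were Abcg1, Scd2, Eepd1 and Cfap126, a gene of cilia. Cfap126 was dim, at 0.570, 0.369 and 1.24 with No treatment, LPS and GW3965 + LPS, and its call (limma adjusted p = 0.042) was lost under quantile normalization (0.078), cyclic loess (0.072), either other floor and robust variances. The fallen gene was Cxcl10, whose chemokine attracts T cells through CXCR3. It read 0.467 with No treatment, 137 with LPS and 24.7 with GW3965 + LPS, and 0.370, 52.4 and 18.9 with TSA, a fall of 1.97 against LPS (limma adjusted p = 0.0033). GW3965 + LPS still left it 52.8-fold above No treatment.

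In the single pair without TSA, 22 of 4622 measured genes were at least 2-fold higher with GW3965 + LPS than with LPS (0.476%) and 58 lower (1.25%). With TSA 82 of 4682 were higher (1.75%) and 27 lower (0.577%). These 2 pairs share arrays with the comparison against No treatment, so their values are given only side by side. Interferon-stimulated genes had a median log2 difference of 3.04 for GW3965 + LPS and 3.80 for LPS alone, each against No treatment. Against LPS, 7 of 35 of them were at least 2-fold lower with GW3965 + LPS without TSA, with a median of -0.81 against -0.02 for all genes. With TSA 0 of 36 were lower, with a median of 0.01 against 0.04 for all genes, and limma called 0 of the list's genes against LPS. Cytokines had medians of -0.26 without TSA and -0.17 with it, with 1 of 17 and 0 of 17 at least 2-fold lower. Chemokines had medians of -0.17 and -0.29, with 3 of 21 and 4 of 20 at least 2-fold lower.

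A few genes of the comparison stood above LPS alone as well as above No treatment. By the naming rule, which asks for at least 2-fold against No treatment and at least 1.5-fold against LPS in both backgrounds, there were 7, of which limma called Cfap126 alone against LPS. Asns, the asparagine synthetase of the amino acid stress response, read 5.602 with No treatment, 14.7 with LPS and 34.5 with GW3965 + LPS, and 6.02, 9.41 and 18.7 with TSA. Nupr1, a stress-induced nuclear protein, read 7.53, 25.4 and 43.9, and 7.76, 26.4 and 49.8 with TSA. P2ry13, an ADP receptor, read 0.622, 3.05 and 5.46, and 1.03, 3.05 and 5.53 with TSA. All 3 rose against no LPS in limma and lay highest with GW3965 + LPS in both backgrounds. Arg2, Tfec, a transcription factor of macrophages, and Tma16 completed the list. In the downward direction the rule found Evl, an actin regulator, at 1.46, 1.01 and 0.535, which missed the threshold against no LPS (limma adjusted p = 0.091).

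Among 19 tested genes of fat handling outside the LXR list, 3 fell and 1 rose in limma. Over all tested genes 4.97% fell and 12.0% rose. Pparg, the nuclear receptor that drives lipid storage in macrophages, read 23.96 with No treatment and 5.77 with GW3965 + LPS (4.15-fold lower) and 33.8 and 3.61 with TSA. The fatty acid binding protein Fabp4, a target of Pparg, went from 297 to 123, and the monoacylglycerol lipase Mgll from 4.78 to 1.44. All 3 fell in limma. Of 19 genes for lipid uptake and storage 1 was at least 2-fold higher (5.26%, against 10.8% of all measured genes), 3 lower and 15 within 2-fold. Of 13 sterol synthesis and uptake genes 11 were within 2-fold and 2 lower, where 3956 of all 4775 measured genes (82.8%) were within 2-fold, and Cyp51, a sterol demethylase, differed by 0.66. Cyp27a1, which makes an oxysterol, fell, from 7.38 to 3.43, and Ch25h, which makes another, rose in limma by 2.02 ± 0.36 (adjusted p = 0.00046), being under the floor with No treatment and dim at 0.620 with GW3965 + LPS. The median of this list, 0.07, turned negative under quantile normalization and cyclic loess.

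Of 35 genes for the citric acid cycle and oxidative phosphorylation 34 were within 2-fold. Limma called 2 of the 35 fallen, near the share over all tested genes (4.97%). The 2 were Idh1 and Idh2, which make alpha-ketoglutarate from isocitrate. Idh1 read 8.94 and 3.78, and 5.41 and 3.13 with TSA. Over all measured genes 10.8% were at least 2-fold higher, 6.37% lower and 82.8% within 2-fold. Near those shares, 2 of 22 glycolysis and hypoxia genes were higher (9.09%), 2 lower and 18 within 2-fold. The 2 higher ones, Hif1a, the hypoxia-inducible factor, and Pfkp, a phosphofructokinase, rose in limma, with 5.38 and 27.2, and 29.5 and 79.5.

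Genes of antigen presentation were counted by class. For MHC class I 6 of 17 measured genes were at least 2-fold higher (35.3%, against 10.8% of all measured genes) and 0 lower. The median of the 17 was 0.93. In limma 7 rose, where 12.0% of all tested genes did. Among them were the peptide transporter Tap1 (1.63 and 5.06) and the proteasome activator Psme2 (116 and 278), while B2m, the light chain of class I molecules, differed by -0.10. For class II 10 of 12 were within 2-fold, where 82.8% of all measured genes were. H2-Aa, H2-Ab1 and Cd74 differed by -0.14, -0.19 and -0.08. H2-Oa, a modulator of class II loading, was 4.28-fold higher, at 0.524 and 2.24. Of 33 proteasome genes 8 were higher (24.2%), 0 were lower and 11 rose in limma. Only 2 were at least 2-fold higher after quantile normalization or cyclic loess.

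Genes that promote survival and genes that promote death were both among those that rose. Cflar, which blocks death receptor signalling, went from 2.33 to 36.0 (15.5-fold), and Birc3, an inhibitor of apoptosis, from 2.14 to 18.1. The death receptor Fas went from 1.38 to 12.9, and Casp4, the mouse caspase that senses LPS in the cytosol, from 8.08 to 101 (12.4-fold). Of 21 measured genes 8 were at least 2-fold higher (38.1%), 1 lower and 12 within 2-fold. Over all measured genes 10.8% were higher and 6.37% lower. In limma 8 of 20 rose and 1 fell, where 12.0% and 4.97% of all tested genes did. Chaperone genes included Hspa1a, an inducible HSP70, at 1.47 and 10.996, and Hspa5 (BiP), at 9.55 and 25.1. Of 22 measured chaperone genes 5 were higher (22.7%, against the 10.8% of all measured genes) and 0 lower. In defence against oxidants Sod2, the mitochondrial superoxide dismutase, went from 20.5 to 171 (8.36-fold) and the cystine transporter Slc7a11 from 1.27 to 8.50, while Cat, catalase, fell (-0.98 in the pair). Hmox1 differed by 0.12.

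The cell cycle list gave no common direction, with 4 genes higher, 3 lower and 16 within 2-fold. The share higher was 17.4%, against 10.8% of all measured genes. Mki67, the gene of the proliferation marker Ki-67, rose, from 1.65 to 26.4, whereas Cdk1, Pcna and Ccnb2, which dividing cells also need, differed by -0.46, -0.31 and -0.28. Cdkn1a, the cell cycle inhibitor p21, rose, from 1.46 to 7.73, and the checkpoint kinase gene Chek2 fell, from 1.46 to 0.276.

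Of 18 measured receptor genes for chemoattractants, purines and lipids 5 were at least 2-fold higher and 4 lower, with a median of -0.15. Over all measured genes 10.8% were higher and 6.37% lower. In limma 5 of the 18 rose and 2 fell, where 12.0% and 4.97% of all tested genes did. Beside Fpr2, the rising ones were Ccrl2 (27.5 and 272), P2ry14 (19.1 and 101), P2ry13 and C5ar1. Lpar6 and the cannabinoid receptor Cnr2 fell, and Ptger2 and Ccr1 differed by -1.28 and -1.07 in the pair without passing in limma. Among cytokine receptors, Tnfrsf11a (RANK) went from 0.452 to 3.95 (8.73-fold), and Ifngr1 read 2.56 and 1.14 here but 1.69 and 2.13 with TSA. Of 31 macrophage transcription factor genes 6 were higher (19.4%, against 10.8% of all measured genes), 5 lower and 20 within 2-fold. Batf and Irf1 rose and Pparg and Mxi1 fell, while Spi1 (PU.1), which defines the lineage, differed by 0.32.

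The coagulation and complement list held 5 higher (29.4%, against 10.8% of all measured genes) and 0 lower of 17. Serpinb2, an inhibitor of plasminogen activators, went from 1.67 to 29.1 (17.4-fold), coagulation factor X (F10) from 77.9 to 522 (6.70-fold), tissue factor (F3) from 0.789 to 3.23, and complement factor B (Cfb) from 2.57 to 24.5 (9.54-fold). All 4 rose in limma. The share within 2-fold was 82.8% over all measured genes. Of 38 lysosome and phagocytosis genes 35 were within 2-fold. The inhibitory Fc receptor gene Fcgr2b (8.64 and 31.2) and the bridging ligand Gas6 (1.80 and 0.572) differed most in this list. Genes of alternative activation were mixed: Ccl17 went from 0.331 to 2.71, Mrc1, the mannose receptor, differed by -0.37, and 10 of 14 were within 2-fold. All 42 ribosomal protein genes and all 14 housekeeping genes were within 2-fold, and limma called 0 of 42 and 1 of 14, Ywhaz, with the median of both lists turning negative under quantile normalization and cyclic loess.

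The same treatment measured on a second pair of arrays, TSA + GW3965 + LPS against TSA, gave 468 of 4746 genes at least 2-fold higher (9.86%) and 189 lower (3.98%). TSA was on both arrays of that pair, which shares no array with the first. At least 2-fold higher in both pairs were 350 genes, 68.0% of the first list and 74.8% of the second. Of the 515 higher genes 507 had the same sign in the second pair, and 0 were 2-fold lower there. All 40 genes at least 16-fold higher were at least 4-fold higher in the second pair, where 3.69% of measured genes reached that size. Ptx3 is among the 40 but was not measured in the second pair, at 0.915 against a floored value. At least 2-fold lower in both pairs were 112 genes, 36.8% of the first list and 59.3% of the second. Of the 304 lower genes 272 had the same sign in the second pair, and 0 were 2-fold higher there. The median of the lower genes was -1.36 in the first pair, which chose them, and -0.77 in the second, and that of the higher genes 1.65 and 1.39. Among all 4545 genes measured in both pairs 73.1% had the same sign. Over these genes, which are not independent replicates, the Spearman correlation was 0.677 and the Pearson correlation 0.850, and the SD of the difference between pairs was 0.53 on the log2 scale.

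**Figure D5:**
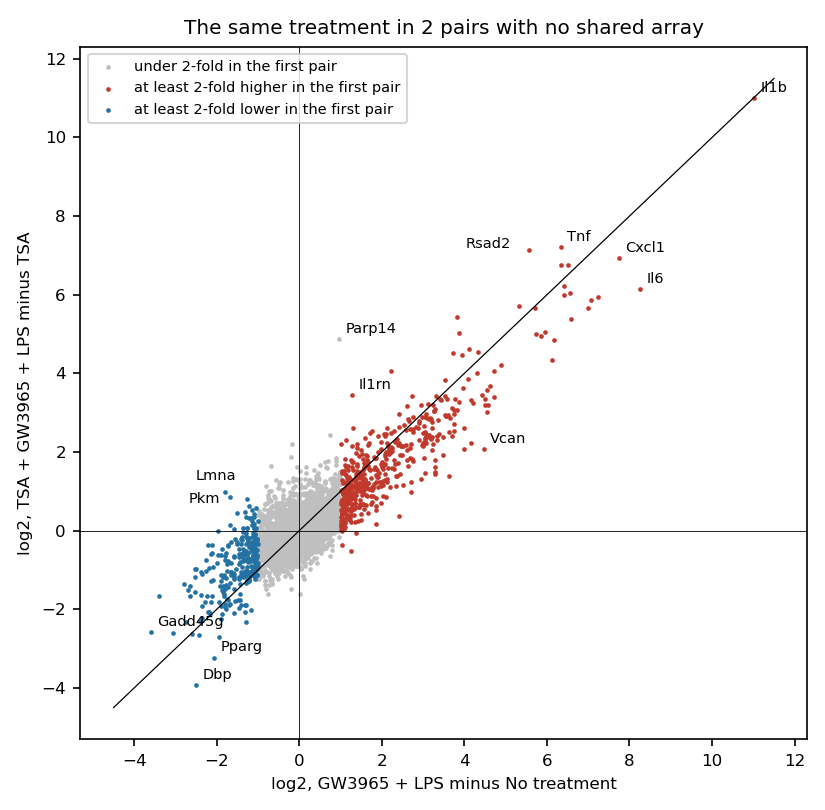
Each point is 1 of the 4545 genes measured in both pairs, with the log2 difference GW3965 + LPS minus No treatment on the horizontal axis and TSA + GW3965 + LPS minus TSA on the vertical axis. The line marks equal values, and red and blue points are the genes at least 2-fold higher and lower in the first pair. Il1b lies at 11.03 and 11.01 and Dbp at -2.50 and -3.92, while Pkm lies at -1.67 and 0.86 and Parp14, drawn in grey, at 0.97 and at least 4.88.

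The 10 genes at least 2-fold apart that differed most between the pairs were read next. Il6 was higher in both but less so with TSA, at 8.25 and 6.14 on the log2 scale. Vcan, which encodes the matrix proteoglycan versican, and the lysophosphatidic acid receptor Lpar1 showed the same order, at 4.47 and 2.08, and at least 3.63 and 1.38. The pattern recognition protein Ptx3 was higher by at least 5.06 and at least 2.00, and these 2 lower limits give no order. Il1rn was the reverse, at 1.28 and 3.45. Arhgef2, an exchange factor for RhoA, was at least 2.89 higher in the first pair and read 0.250 against a floored value in the second. Olfr15, an olfactory receptor gene, read 1.30 and 0.236 in the first pair, and in the second 0.259 with TSA and under the floor with TSA + GW3965 + LPS. Lmna, which encodes the nuclear lamins A and C, Pkm, a pyruvate kinase, and the carboxypeptidase gene Scpep1 were lower in the first pair, at -1.81, -1.67 and -1.21, and above 0 in the second, at 0.98, 0.86 and 0.94. None of the 3 passed in limma, whose estimate averages the pairs.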

How the data were processed

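Messenger RNA was measured on 6 single-colour arrays. Per the labels' protocols, 0.5 ug of total RNA was copied into biotin-labelled cRNA. The deposited values are linear intensity, with array medians of 0.981 to 0.987, so the authors had scaled them; 19 to 28 values per array were at or below 0. The scaling and background method are not given in the sources used here. Of 10076 probes, 8983 carried 1 symbol, 1 several and 1092 none, and for 138 genes the brightest of several probes was used. Arrays were floored at their 25th percentile (0.198 to 0.245) and log2-transformed. limma 3.58.1 in R 4.3.3 tested 4806 genes at or above the median on 2 or more arrays (intensity trend, 2 residual and 15.1 prior degrees of freedom). The fit assumes that the effects of treatment and TSA add on the log2 scale. The pipeline was tested on simulated data with added changes of equal size without and with TSA, so departures from additivity were not covered. There limma called 63.75% of 2-fold and 99.9% of 4-fold changes, and 5.26% of its calls were false. Alternatives covered scaling, floor, filter, probe averaging, threshold, prior variance and left-out arrays.

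The gene lists (28, with 741 of 933 symbols on the array, 10 through a synonym) and rules were chosen with earlier results of these data known. Named genes are the 15 highest and 15 lowest in the pair, those also at least 1.5-fold from LPS in both backgrounds, the 4 members of each list farthest from 0, all measured LXR targets, and the 10 differing most between pairs. Other genes were chosen after their values were seen. Promoters are from RefSeq. The number of arrays limits the precision.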

Additional observations from a re-analysis of the deposited data

Results flagged for a closer look

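Only named genes were screened here. Among them Pkm, Lmna, Scpep1 and Neu1 were at least 2-fold lower with GW3965 + LPS than with No treatment. In the pair with TSA they stood on the other side of 0 by at least 1.5-fold. Of all 304 lower genes 32 had the opposite sign with TSA, as had 8 of the 515 higher genes. Pkm differed by -1.67 without TSA and 0.86 with it, a gap of -2.53. Lmna differed by -1.81 and 0.98, a gap of -2.79, and Scpep1 by -1.21 and 0.94, a gap of -2.16. Neu1, the lysosomal sialidase gene, differed by -1.005 and 0.65, a gap of -1.65. Each value comes from 1 array per group, and the difference between the pairs was not tested.

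Probes without a gene symbol were left out of every comparison above. Of 552 such probes measured in the pair, 51 were at least 2-fold higher with GW3965 + LPS than with No treatment and 36 were at least 2-fold lower. These counts lie near the shares of measured named genes, where 515 of 4775 were higher (10.8%) and 304 lower (6.37%). The largest log2 difference of an unnamed probe was 6.46.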

How the results depend on the processing

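A threshold of 4-fold left 206 genes higher and 46 lower in the pair, and 175 and 22 in the pair with TSA. Quantile normalization moved the genes that fell in limma to 370 and the share of higher among the genes 2-fold apart from 62.9% to 52.4%. The share of risen among limma's calls went from 70.7% to 56.5%. Without the filter on dim genes 382 fell in limma against no LPS, and against LPS 12 rose and 8 fell. Without the LPS and TSA + LPS arrays, which leaves 1 residual degree of freedom, 870 rose and 447 fell, and against LPS 9 rose and 8 fell without the No treatment and TSA arrays. The other settings kept each count within 1.5 times and turned no direction of a tested gene. Of the 108 named gene results called in limma, flooring at the median ended 11, quantile normalization 6, robust variances 4 and loess 3, among them Ptx3, Zmynd10, Tpra1, Cfap126, Abcg1, Scd2, H2-M3, Fcgr2b, Psma5 and Ywhaz. No paired analysis was possible because the labels carry no replicate numbers and each group has 1 array. Values near the floor limit what can be said of dim genes, and of 46 genes with several measured probes 33 had probes within 2-fold of each other.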

Other observations

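Several genes at least 16-fold higher belonged to none of the lists and were named after their values were seen. Fv1, a retroviral restriction gene, was under the floor with No treatment and read 13.3 with GW3965 + LPS, at least 58.1-fold higher, and it was under the floor with TSA and read 7.11 with TSA + GW3965 + LPS. Cep55, a gene of the last step of cell division, went from 2.30 to 60.1 (26.2-fold) and Chil1, a chitinase-like secreted protein, from 1.35 to 35.4 (26.1-fold). Edn1, the vessel-constricting peptide endothelin, went from 0.525 to 12.6 (23.97-fold), and Klrk1, the activating receptor NKG2D, from 0.541 to 12.3 (22.8-fold). All 5 rose in limma, with estimates between 3.85 and 5.41.

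Parp14, an interferon-stimulated gene, differed most between the pairs among the genes measured in both. It read 0.564, 7.83 and 1.10 with No treatment, LPS and GW3965 + LPS, and was under the floor with TSA and with TSA + LPS but read 6.70 with TSA + GW3965 + LPS. Its limma estimate of 2.92 ± 0.96 (adjusted p = 0.045) averages these readings.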
